A study of Mus musculus with 6 samples.

Results

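The transcription factors that set up or tune the Th17 fate were described in Th17 cells, the CD4 T helper cells that make interleukin 17. The 9 factor genes were Rora, Batf, Irf4, Stat3, Maf, Ahr, Runx1, Bhlhe40 and Ikzf3, and all 9 were found among the 24182 genes of the table. They were taken by name and by no cutoff on a measured value, but with earlier results of these data known. RNA came from 3 libraries of mouse Th17 cells in which CRISPR/Cas9 was used to knock out the deacetylase gene Sirt2 (KO) and from 3 control libraries (WT). All 6 had been stimulated for 72 hours through the T cell receptor with anti-CD3 at 0.5 μg/mL and through its costimulator with anti-CD28 at 1 μg/mL. The labels name no strain, animal age, guide or clone for either group, nor whether replicates were separate cultures, so every p-value reflects only how far these libraries spread, and that spread may be technical. Values are FPKM as the authors deposited them, that is, sequenced fragments divided by transcript length and by the size of the library.

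A naive CD4 T cell becomes a Th17 cell when receptor stimulation coincides with cytokines such as interleukin 6. BATF and IRF4 bind DNA together early and open sites in chromatin, STAT3 carries the cytokine signal to the nucleus, and nuclear receptors such as RORα then drive the lineage genes. MAF, AHR, RUNX1, BHLHE40 and Ikaros family members such as AIOLOS, the product of Ikzf3, adjust which cytokines the cell makes.

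Several of these genes give rise to more than one protein, and the transcripts that differ are shown first because the values below are split over them. Their sequences come from the GENCODE transcripts of GRCm38, 5′ to 3′, and each window lies in coding sequence. Irf4 (chromosome 13, 30749226 to 30766976, plus strand) had 2 full-length transcripts that differ by 3 bases, in capitals, at a junction between exons (chr13:30752759-30753468, from the first to the last base of the window). They code for 450 residues (longer form) and 449 residues (shorter form).
Irf4 longer form: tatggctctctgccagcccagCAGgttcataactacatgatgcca
Irf4 shorter form: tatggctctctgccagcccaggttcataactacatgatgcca

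Stat3 (chromosome 11, 100885098 to 100939540, minus strand) has a full form of 770 residues and a shorter form of 722 residues, known as STAT3α and STAT3β. STAT3β lacks the C-terminal transactivation domain. The capitals mark the 50 bases that the shorter form skips, which shifts its reading frame (chr11:100889519-100889905).
STAT3α: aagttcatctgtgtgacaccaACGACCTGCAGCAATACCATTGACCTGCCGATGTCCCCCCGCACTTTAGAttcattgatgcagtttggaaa
STAT3β: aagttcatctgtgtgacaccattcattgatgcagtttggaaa

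Maf (chromosome 8, 115682942 to 115707794, minus strand) is either an intronless transcript of 6360 bases coding for 370 residues or a spliced one of 3223 bases coding for 380. The capitals mark what follows the shared coding stretch up to and with the stop codon (chr8:115705751-115705774 for the intronless form, and chr8:115693159-115705774 for the spliced one, across the introns).
Maf intronless: tcctctcccgaatttttcatgTGA
Maf spliced: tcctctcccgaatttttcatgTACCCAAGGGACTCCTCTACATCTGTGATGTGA

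Runx1 (chromosome 16, 92601466 to 92826149, minus strand) is read from a distal and a proximal promoter. RefSeq windows of 300 bases around a RefSeq start of each promoter (GRCm38.p6) are shown because distal and proximal transcripts were measured separately below. The measured transcripts need not begin at those starts. The distal one begins at 92826149, upstream of the RefSeq start at 92826074. The proximal ones begin at 92697328 (387 residues) and at 92696125 (451 residues), the latter outside the window. The capitals mark the RUNX motif TGTGGT on either strand.
Distal, chr16:92826025-92826324: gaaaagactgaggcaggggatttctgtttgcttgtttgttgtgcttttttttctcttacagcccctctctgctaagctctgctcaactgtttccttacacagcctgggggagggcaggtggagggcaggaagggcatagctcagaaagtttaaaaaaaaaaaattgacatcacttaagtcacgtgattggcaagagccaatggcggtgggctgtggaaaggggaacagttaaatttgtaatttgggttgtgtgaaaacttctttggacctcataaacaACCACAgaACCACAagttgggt
Proximal, chr16:92697280-92697579: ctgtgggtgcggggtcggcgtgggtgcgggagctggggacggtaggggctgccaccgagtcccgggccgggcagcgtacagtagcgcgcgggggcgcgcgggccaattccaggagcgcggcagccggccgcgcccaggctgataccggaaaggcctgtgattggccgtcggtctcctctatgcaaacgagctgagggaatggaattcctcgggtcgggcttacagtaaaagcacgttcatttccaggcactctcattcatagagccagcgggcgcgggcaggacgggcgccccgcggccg

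The distal window held 2 RUNX matches, the first 28 bases after the RefSeq start, and the proximal window held 0, while 16.8 percent of 32851 RefSeq windows of this length held at least 1. Windows were found for 5 of the 9 genes, namely Rora, Stat3, Batf, Irf4 and Runx1, 6 windows in all. The Batf window also held 2 RUNX matches. The AP-1 motif TGANTCA and the STAT motif TTCNNNGAA had no match in these 6 windows, against 7.81 and 8.30 percent of all windows, and the ROR motif AGGTCA had none either, against 16.3 percent. The AHR motif GCGTG was found in 4 windows, those of Rora, Stat3, Irf4 and the proximal Runx1 start (32.4 percent of all windows), and the E-box CACGTG in the distal Runx1 window (7.15 percent). Matches of different motifs did not overlap, both strands were searched, and a match or its absence is only a description of these letters.

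In the libraries as a whole, the sum of gene FPKM was 303772 to 321734, and, with no counts in the tables, read depth is not known. Sirt2 stood at 11.2, 13.5 and 10.9 FPKM in KO replicates 1 to 3, against 20.7, 19.9 and 21.9 FPKM in WT, lower in every KO library though not absent, so each library fitted its label. KO replicate 3 stood apart from the other KO libraries: Pearson's r across genes, on log2(FPKM + 1), was 0.981 with KO replicate 1 and 0.979 with KO replicate 2, against 0.990 with each WT library. Results are therefore given with and without it. The 10 T cell markers checked, among them Cd4 and Cd3e, were all measured and summed to 953 to 1057 FPKM in KO, against 971 to 1011 FPKM in WT, and the Th17 cytokine gene Il17f was at 201.7, 350.2 and 244 FPKM in KO and 329, 343 and 357 FPKM in WT. The 8 myeloid markers summed to 8.37 to 12.7 FPKM in KO, against 2.55 to 3.32 FPKM in WT. Cd14 was at 0.881, 1.09 and 1.49 FPKM in KO, against 0.121, 0.0769 and 0.0245 FPKM in WT, and Lyz2, Cd68, Itgam, Itgax and Csf1r were also higher in every KO library, while the macrophage genes Adgre1 and Fcgr1 were under 0.1 FPKM in all 6 libraries and overlapped. The 6 B cell markers summed to 22.7 to 27.5 FPKM in KO, against 19.1 to 19.7 FPKM in WT, most of it Ighm. Ighm and Pax5 were among those higher in every KO library, and Ms4a1 was under 0.1 FPKM in all 6 libraries. Of 8 cytotoxic and NK markers the 6 found summed to 23.3 to 26.6 FPKM in KO, against 8.96 to 9.83 FPKM in WT, led by Gzmb, and Cd8a, Nkg7 and Gzmb were higher in every KO library. The groups overlapped for the rest of the list, Cd8b1, Klrd1 and Prf1. Myeloid and B lineage cells also express several of the 9 factors, and the part of such cells in the results below was not tested.

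Per length, the factors spanned a wide range of levels. The summed FPKM of a gene's transcripts is used for this, because the deposited gene FPKM is spread over every annotated exon of a gene and falls where little-used exons are many. In WT libraries this sum averaged 236 FPKM for Bhlhe40, 177 for Irf4, 106 for Stat3, 84.9 for Batf, 34.4 for Ahr and 22.4 for Maf. The lowest were Runx1 at 12, Rora at 11.1 and Ikzf3 at 10.9 FPKM, and the WT libraries of these 3 overlapped, so their order is not resolved. In KO libraries the sum of Stat3, at 88.6 to 114.5 FPKM, also overlapped those of Irf4, at 109.9 to 206 FPKM, and Batf, at 84.7 to 106.9 FPKM, while Irf4 and Batf did not overlap each other.

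The comparison of genotypes asked whether loss of Sirt2 went with a change in the factors that install the Th17 programme. With all 6 libraries, 0 of the 9 genes passed (limma on log2(FPKM + 1), adjusted p under 0.05 over 10873 tested genes). In that fit 0.110 percent of all tested genes passed, 12 genes, while 610 genes (5.61 percent) and 3 of the factors, Maf, Bhlhe40 and Ahr, had a limma unadjusted p under 0.05. The median log2 fold change over the 9 was -0.16, beside -0.03 over all tested genes. At gene level 0 of the 9 had a q under 0.05 in the authors' deposited table, where 0.422 percent of 24182 genes did. Bhlhe40 was higher in every KO than in every WT library, as were 4.28 percent of tested genes, and Maf was lower in every KO library, as were 6.88 percent. When KO replicate 3 was left out, 5 of the 9 were called, where 10.1 percent of 10726 tested genes were. Irf4, Maf, Ikzf3 and Ahr fell, as did 6.14 percent of tested genes, and Batf rose, as did 4.0 percent. Between those 5 libraries 2 factors were higher in both KO libraries than in any WT library, where 18.9 percent of tested genes were, and 6 were lower, where 31.2 percent were. The RNA is from bulk cells, so fewer cells that express a factor and less of its RNA per cell cannot be told apart. "Rose" and "fell" below refer to the fit without KO replicate 3, since no factor passed with all libraries. That library was singled out for its likeness to WT, so leaving it out by itself favours wider differences and more calls. Over all tested genes the calls went from 12 to 1088. Calls from that fit therefore describe KO replicates 1 and 2 against WT and do not establish an effect of genotype.

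**Figure D1:**
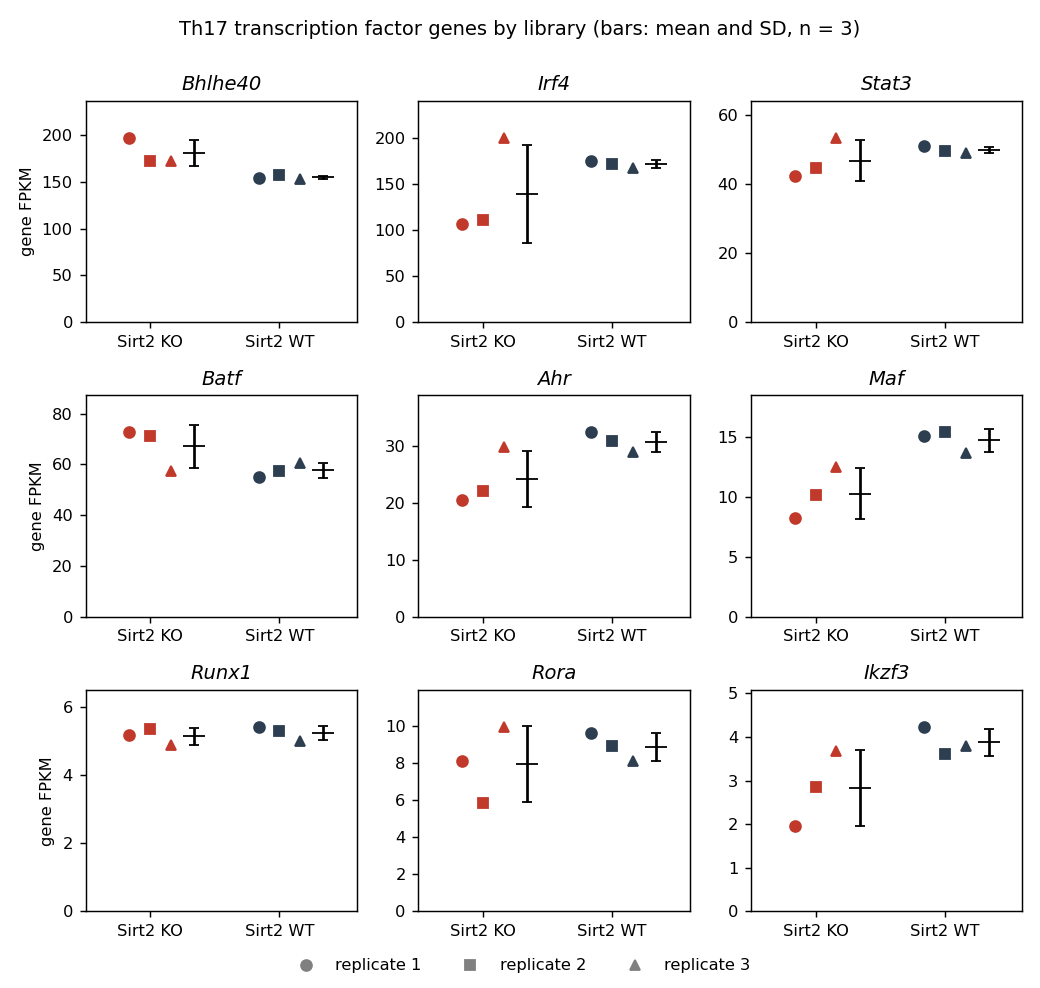
Gene FPKM of the 9 factors (vertical axes, linear from 0 and differing between panels) in each Sirt2 KO and Sirt2 WT library; symbols are replicates, and bars are means with SD, n = 3. Irf4 stood at 106.7 and 110.1 FPKM in KO replicates 1 and 2 and at 199.9 FPKM in KO replicate 3, while its WT libraries lay close together.

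Among the early factors, Irf4 had the largest gap within the KO group. Irf4 encodes the partner of BATF at composite DNA sites. It stood at 107, 110.1 and 199.9 FPKM in KO replicates 1 to 3, against 175, 172 and 167 FPKM in WT replicates 1 to 3. KO replicates 1 and 2 lay below every WT library and KO replicate 3 lay above them all. With all libraries the KO over WT difference was -0.36 on the log2 scale (limma adjusted p = 0.847, 95% interval -0.87 to 0.15). Irf4 fell by 0.65 on that scale when KO replicate 3 was left out (SE 0.0477, limma adjusted p = 0.00313), the smallest adjusted p of the 9.

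Batf encodes the AP-1 family protein that pairs with JUN proteins and with IRF4. It pointed the other way, at 72.6, 71 and 57.5 FPKM in KO and 54.9, 57.4 and 60.6 FPKM in WT. KO replicates 1 and 2 exceeded every WT library, and KO replicate 3 lay within the WT range. KO over WT, the difference was 0.21 on the log2 scale with all libraries (limma adjusted p = 0.843, 95% interval -0.02 to 0.44), and Batf rose by 0.31 without KO replicate 3 (SE 0.0564, limma adjusted p = 0.0232). In the 2 libraries where Irf4 was lowest, its partner gene was thus highest.

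Stat3, which relays the signal of interleukin 6 and its relatives, differed least among these 3. Its values were 42.5, 44.6 and 53.5 FPKM in KO and 51, 49.7 and 49.1 FPKM in WT, with KO replicates 1 and 2 below and KO replicate 3 above all WT libraries. KO over WT, the difference was -0.10 on the log2 scale (limma adjusted p = 0.876, 95% interval -0.31 to 0.12). It was -0.19 with KO replicate 3 left out, just above the threshold (limma adjusted p = 0.0527).

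Of the factors that tune the programme, Maf and Ahr were lower in KO replicates 1 and 2. Maf, a bZIP factor that drives interleukin 10 and interleukin 21 in helper T cells, was at 8.21, 10.2 and 12.5 FPKM in KO and 15.1, 15.4 and 13.7 FPKM in WT, without overlap. Its log2 fold change was -0.49 (SE 0.136, limma unadjusted p = 0.00734, adjusted p = 0.738), and its q was 0.062 in the authors' deposited table. Maf fell by 0.63 with KO replicate 3 left out (SE 0.0967, limma adjusted p = 0.0168). Of the 3 KO libraries, replicate 1 was lowest and replicate 3 nearest to WT.

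Ahr encodes the aryl hydrocarbon receptor, a ligand-gated factor needed for interleukin 22 in Th17 cells. It was at 20.5, 22.1 and 29.7 FPKM in KO and 32.3, 30.8 and 28.9 FPKM in WT, and KO replicate 3 lay among the WT libraries. KO over WT, the difference was -0.35 on the log2 scale with all libraries (limma adjusted p = 0.843, 95% interval -0.66 to -0.04). Ahr fell by 0.50 without KO replicate 3 (SE 0.0663, limma adjusted p = 0.0117).

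Ikzf3, whose product AIOLOS restrains Il2 in Th17 cells, was the factor of lowest gene FPKM. It was at 1.95, 2.86 and 3.69 FPKM in KO and 4.23, 3.62 and 3.79 FPKM in WT, with KO replicate 3 inside the WT range. KO over WT, the difference was -0.37 on the log2 scale (limma adjusted p = 0.843, 95% interval -0.76 to 0.01). Ikzf3 fell by 0.53 without KO replicate 3 (SE 0.128, limma adjusted p = 0.0448), and the added 1 FPKM makes this smaller than the fold in FPKM.

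Bhlhe40, a basic helix-loop-helix repressor that supports GM-CSF and limits interleukin 10, was the most abundant factor by summed transcript FPKM. Its gene level was 198, 173 and 173 FPKM in KO and 155, 157 and 153 FPKM in WT, and here KO replicate 3 sided with the other KO libraries. KO over WT, the difference was 0.22 on the log2 scale (limma adjusted p = 0.843, 95% interval 0.05 to 0.38) with all libraries and 0.25 without KO replicate 3, just short of the threshold (limma adjusted p = 0.0527).

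Rora and Runx1 showed no difference that exceeded the spread. Rora, which encodes the nuclear receptor RORα, was at 8.08, 5.84 and 9.94 FPKM in KO and 9.59, 8.93 and 8.08 FPKM in WT, and the KO libraries spread on both sides of WT. KO over WT, the difference was -0.16 on the log2 scale (limma adjusted p = 0.876, 95% interval -0.55 to 0.22), and -0.32 with KO replicate 3 left out (adjusted p = 0.134). Runx1, a DNA-binding factor that works with CBFβ, was the steadiest of the 9, at 5.17, 5.36 and 4.87 FPKM in KO and 5.41, 5.28 and 5.0 FPKM in WT. It differed by -0.02 on the log2 scale, KO over WT, with a 95% interval of -0.20 to 0.16 (limma adjusted p = 0.964).

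**Figure D2:**
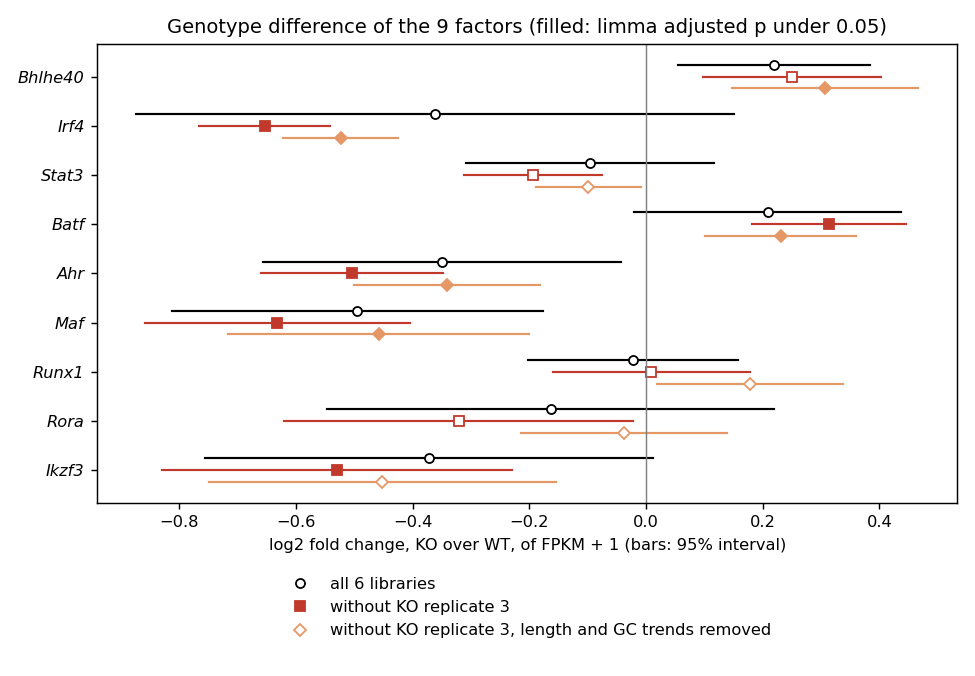
Log2 fold change of FPKM + 1, KO over WT (horizontal axis), with its 95% interval, for the 9 factors in 3 fits: all libraries, without KO replicate 3, and without KO replicate 3 after length and GC trends were removed. Filled symbols passed at limma adjusted p under 0.05, which holds for 0, 5 and 5 factors.

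The length of transcripts moved with these differences. Across 10827 tested genes the Spearman correlation of transcript length with the difference from the WT mean was -0.33 in KO replicate 1, -0.46 in KO replicate 2 and 0.23 in KO replicate 3. It was 0.25, 0.01 and -0.24 in WT replicates 1 to 3. Each WT library is part of the WT mean, so the WT differences cancel out for each gene. Opposite signs among the WT libraries are thus partly built in, and the WT values are not strictly comparable with those of KO. Genes are not independent of one another, so these values only describe the libraries. The factors differ in length, with leading transcripts from 955 bases for Batf to 10878 bases for Rora. For Rora, tested genes of like length had a median difference of -0.30 in KO replicate 2, beside -0.53 for Rora itself, and of -0.17 in KO replicate 1, beside -0.12. For Irf4 the same medians were -0.11 in KO replicate 1, beside -0.68, and -0.14 in KO replicate 2, beside -0.63. Irf4 thus lay further from the genes of its length than Rora did.

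**Figure D3:**
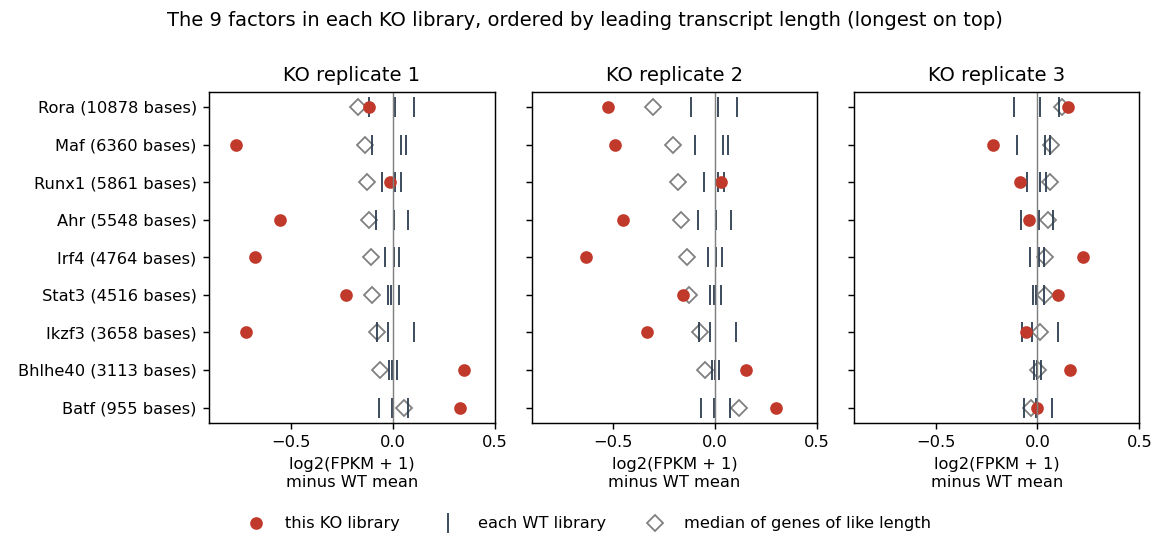
Difference of log2(FPKM + 1) from the WT mean (horizontal axis) for the 9 factors, ordered by leading transcript length, in each KO library (circles), with the WT libraries (ticks) and the median of tested genes of like length (diamonds). Irf4, Maf, Ahr, Ikzf3 and, by less, Stat3 lay to the left of both in KO replicates 1 and 2, and Batf and Bhlhe40 to the right.

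When trends with length and GC content were removed from each library and KO replicate 3 was left out, again 5 of 9 factors passed, where 9.37 percent of 10681 tested genes did (5.64 percent higher and 3.74 percent lower in KO). Irf4 was lower in KO by a log2 fold change of -0.52 (limma adjusted p = 0.00571), Ahr by one of -0.34 (adjusted p = 0.0331) and Maf by one of -0.46 (adjusted p = 0.0487). Batf was higher, with a log2 fold change of 0.23 (limma adjusted p = 0.0483), and Bhlhe40 now passed as higher at 0.31 (adjusted p = 0.0421). Ikzf3 no longer passed, at -0.45 (limma adjusted p = 0.071), and Rora came to -0.04 (adjusted p = 0.773). With all 6 libraries 0 factors passed after this removal.

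At the level of transcripts, 40 were listed for the 9 genes, 20 of them protein coding and 15 with a retained intron. Of the 17 that reached 1 FPKM in at least 3 libraries, 0 passed, where 0.0417 percent of 19184 tested transcripts did (limma, adjusted p under 0.05). Of the 17, 2 had a limma unadjusted p under 0.05, as did 5.57 percent of all tested, namely the intronless Maf and the main Bhlhe40 transcript. In the fit without KO replicate 3, 0 of 16 passed, where 0.0273 percent of all did. On simulated data with all libraries the transcript fit called 1.54 percent of log2 changes of 0.5, so these counts of 0 say little about changes of that size. How reads were assigned to transcripts that share most of their sequence is not given, so the split between such transcripts is less certain than their sum.

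The Irf4 forms that differ by the 3 bases shown above differed in the same direction. The longer form was at 66.6, 64.7 and 111 FPKM in KO and 109.6, 99.967 and 109 FPKM in WT. The shorter form was at 43.3, 48.6 and 94.3 FPKM in KO and 70.4, 76.9 and 62.5 FPKM in WT. Both were lower in KO replicates 1 and 2 than in any WT library. The longer form held 60.5, 56.8 and 54 percent of the gene's summed FPKM in KO and 60.6, 56.4 and 63.5 percent in WT, which overlapped (exact two-sided permutation p = 0.4, where 3 against 3 cannot go below 0.1). Such shares were compared for the leading transcripts of all 9 genes, and none could therefore pass.

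The intronless Maf form carried the non-overlapping values. This form was at 8.83, 9.94 and 12.7 FPKM in KO and 15.9, 16.7 and 14.4 FPKM in WT, without overlap (log2 fold change -0.55, limma adjusted p = 0.729). Its q in the authors' deposited table was 0.0213. The spliced form was at 3.57, 6.39 and 6.94 FPKM in KO and 7.24, 6.48 and 6.5 FPKM in WT, which overlapped. The share of the intronless form was 71.2, 60.9 and 64.6 percent in KO and 68.8, 72 and 68.9 percent in WT, a difference of -4.33 percentage points (exact two-sided permutation p = 0.3). So a difference between the forms was not shown.

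Stat3 was mostly the full form. The STAT3α transcript held 80.9, 88.7 and 80.8 percent of the gene's summed FPKM in KO and 79.5, 86.4 and 85.9 percent in WT (exact two-sided permutation p = 1). The STAT3β transcript, which skips the 50 bases shown above, was at 10.8, 7.02 and 10.3 FPKM in KO and 12.7, 6.5 and 6.17 FPKM in WT, and the groups overlapped.

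Runx1 was read mainly from its distal promoter in every library. The transcript that starts there was at 8.76, 8.6 and 8.18 FPKM in KO and 8.93, 8.28 and 7.64 FPKM in WT. The pair of proximal transcripts, which code for 387 and 451 residues, summed to 2.63, 3.3 and 3.08 FPKM in KO and 3.01, 3.47 and 3.36 FPKM in WT. Of these 3 transcripts the distal one made up 76.9, 72.2 and 72.6 percent in KO and 74.8, 70.5 and 69.5 percent in WT, and the groups overlapped.

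A low Ahr transcript that keeps an intron was near 0 in KO libraries. It (chromosome 12, 35514406 to 35526779, minus strand, 818 bases) joins part of exon 2 of the gene to exon 3 and runs 615 bases on into intron 3. It was at 0.000663, 0.000511 and 0.0325 FPKM in KO and 0.411, 0.369 and 0.417 FPKM in WT. Its q in the authors' deposited table was 0.000118, the smallest of the 40. That table put 3 of the 40 under a q of 0.05, the others being the intronless Maf and the main Bhlhe40 transcript (0.0248), where 1.82 percent of all listed transcripts were. All its values are under 1 FPKM, so it was not tested here with the others, and in the fit without a filter it did not pass (limma unadjusted p = 0.00108, adjusted p = 0.608). The coding transcript held 99.997, 99.9 and 99.9 percent of the gene's sum in KO and 98.9, 98.9 and 98.7 percent in WT, the one leading share of the 9 that did not overlap (exact two-sided permutation p = 0.1, the smallest possible).

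Summed together, the retained-intron forms of Stat3 also stood lower in KO. Its 9 such transcripts summed to 0.968, 0.721 and 1.7 FPKM in KO and 1.8, 2.05 and 2.0 FPKM in WT, without overlap, although the coding Stat3 overlapped. Not every form went this way. A form of 408 bases averaged 0.198 FPKM in KO against 0.0675 FPKM in WT, and a form of 349 bases 0.0238 against 0.00911 FPKM. Over the 9 genes, 11 of 15 retained-intron transcripts had a lower mean in KO. The share over all retained-intron transcripts was not taken, so this count is only a description. For Bhlhe40 the sum of the 2 forms overlapped, at 5.57, 4.32 and 5.64 FPKM in KO and 5.55, 4.25 and 3.94 FPKM in WT. These forms were low, mostly under 1 FPKM, and few fragments may lie behind each.

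**Figure D4:**
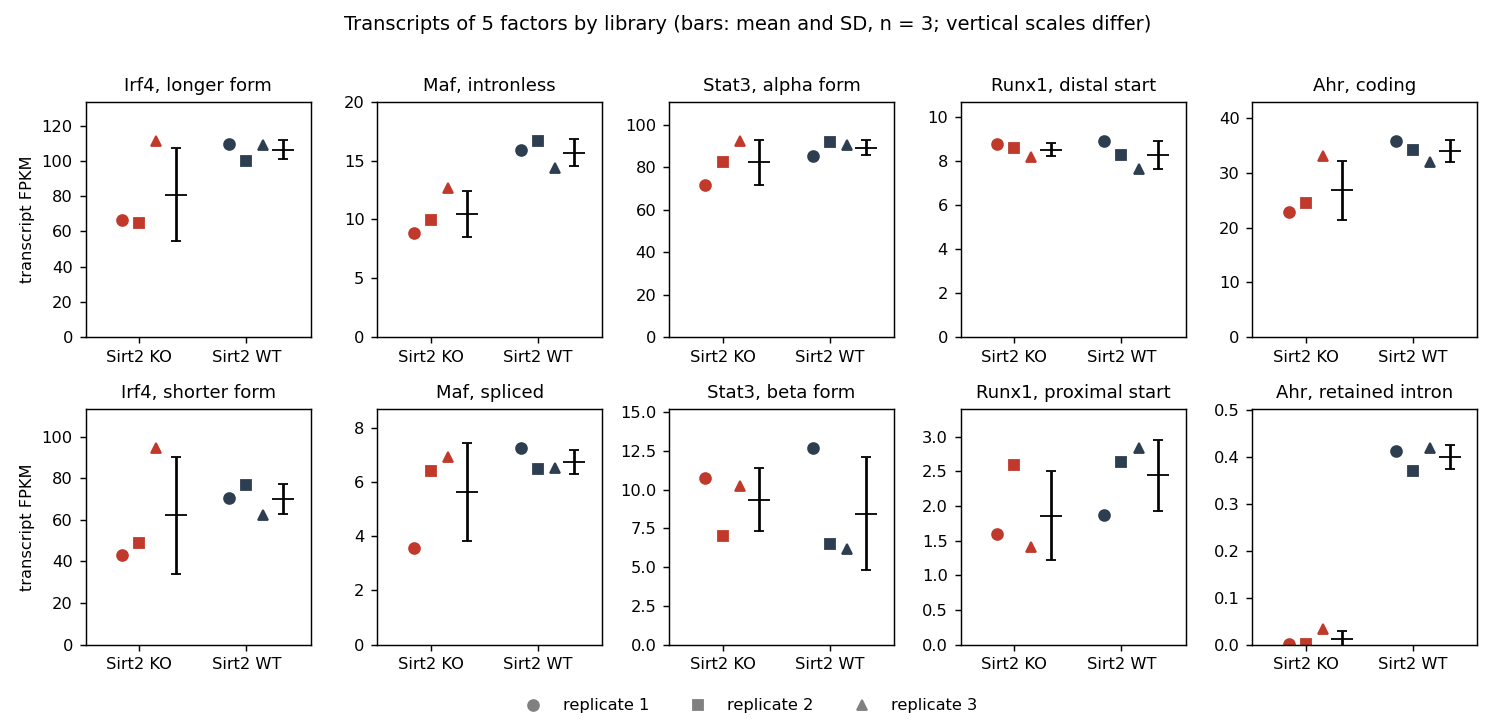
Transcript FPKM (vertical axes, linear from 0 and differing between panels) of 10 transcripts of 5 factors (for the proximal Runx1 start, the one of 387 residues) in each Sirt2 KO and Sirt2 WT library; symbols are replicates, and bars are means with SD, n = 3. The Ahr transcript with a retained intron lay near 0 in the KO libraries and at 0.369 to 0.417 FPKM in WT.

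Proteins that work with the factors were then read from lists of related genes. Counts of these lists without KO replicate 3 stand beside 6.14 percent of all tested genes that fell and 4.0 percent that rose in that fit. Genes without overlap over all 6 libraries stand beside 6.88 percent of tested genes lower in every KO library and 4.28 percent higher. With all libraries 0 of 10 partner genes passed (median log2 fold change -0.01, beside -0.03 over all tested genes, to be set beside the medians below as well). Cbfb, the RUNX1 partner, was at 43.9, 41.2 and 41.7 FPKM in KO and 47.6, 44.8 and 46.8 FPKM in WT, the one partner whose groups did not overlap. Junb, a dimer partner of BATF, was at 369.9, 359 and 258 FPKM in KO and 291, 295 and 281 FPKM in WT. Junb rose by 0.33 (limma adjusted p = 0.0153) when KO replicate 3 was left out, and Jund by 0.23 (adjusted p = 0.030), with Batf, and both also passed after length and GC trends were removed. Arnt, the dimer partner of AHR, was at 7.61, 7.75 and 9.16 FPKM in KO and 8.98, 8.63 and 8.99 FPKM in WT, and it did not pass in either fit (without KO replicate 3, limma adjusted p = 0.0944).

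Among 26 paralogs 21 were tested and 0 passed with all libraries (median 0.00). Ikzf4, which encodes the AIOLOS relative EOS, was at 3.21, 4.36 and 6.96 FPKM in KO and 7.58, 7.87 and 7.01 FPKM in WT, without overlap. Irf9 averaged 4.66 ± 0.491 FPKM in KO libraries against 5.79 ± 0.389 FPKM in WT libraries, also without overlap (SD, n = 3 each). Irf5 was higher in every KO library and averaged 3.55 ± 0.218 FPKM in KO libraries against 2.86 ± 0.216 FPKM in WT libraries. Of the 21 tested paralogs, 4 were lower in every KO library and 1 was higher. When KO replicate 3 was left out, 0 paralogs rose and 4 fell, among them Ikzf4 with a log2 fold change of -0.84 (limma adjusted p = 0.0118), Stat2 with -0.51 (adjusted p = 0.0174) and Stat5b with -0.23 (adjusted p = 0.0334). After length and GC trends were also removed 3 paralogs fell, and Stat5b no longer passed, at -0.13 (limma adjusted p = 0.0762). Stat2 carries interferon signals, and Stat5b carries interleukin 2 signals.

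Genes of the wider Th17 programme, which were not shown here to be targets of the factors, did not pass with all libraries either. Of 16 genes of the Th17 programme 0 passed (median -0.28), and without KO replicate 3, 5 fell and 0 rose. Il21, a cytokine gene bound by IRF4, BATF and MAF, fell by 0.56 (limma adjusted p = 0.00779), at 24.2, 26.3 and 41.8 FPKM in KO against 39, 37.5 and 36.4 FPKM in WT. Hif1a fell by 0.56 (adjusted p = 0.00621), the kinase gene Sgk1 by 0.65 (adjusted p = 0.0199), the interleukin 6 receptor gene Il6ra by 0.50 (adjusted p = 0.0232) and the chemokine receptor gene Ccr6 by 0.43 (adjusted p = 0.0318). KO replicate 3 lay above every WT library for Il21 and Hif1a, as it did for Irf4, and within the WT range for the other 3. With length and GC trends also removed 4 genes fell and 1, Il1r1, rose, by 0.39 (limma adjusted p = 0.0483). Il6ra then no longer passed, at -0.31 (limma adjusted p = 0.0591). Il22, a cytokine gene, and Il1r1, an interleukin 1 receptor gene, were higher in all KO libraries, at 6.92, 6.21 and 9.3 FPKM and 1.99, 1.64 and 2.17 FPKM in KO, against 5.59, 5.61 and 4.41 FPKM and 1.34, 1.51 and 1.3 FPKM in WT (with all libraries, limma adjusted p = 0.843 for both). Il10 was lower in all KO libraries, at 2.93, 4.18 and 4.83 FPKM against 4.85, 4.86 and 5.63 FPKM in WT (limma adjusted p = 0.843). The groups overlapped for the rest of the 16 genes. Of all tested genes 4.28 percent were higher in every KO library and 6.88 percent lower.

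Genes that AHR switches on were read beside Ahr itself. Tiparp, which feeds back on AHR, was at 3.95, 4.47 and 5.22 FPKM in KO and 6.12, 5.39 and 5.63 FPKM in WT, and Ahrr, the AHR repressor, at 0.649, 0.892 and 0.862 FPKM in KO and 1.06, 1.18 and 1.1 FPKM in WT, both without overlap. The groups overlapped for Cyp1a1 and Cyp1b1, the other tested AHR targets. Cyp1a1 was at 2.09, 2.75 and 0.953 FPKM in KO and 2.36, 1.95 and 2.24 FPKM in WT. Without KO replicate 3 the log2 fold change was 0.10 for Cyp1a1 (limma adjusted p = 0.583) and -0.13 for Cyp1b1 (adjusted p = 0.616). With all libraries 0 of 4 tested AHR targets passed (median -0.24), and without KO replicate 3 Tiparp fell by 0.37 (limma adjusted p = 0.0407). That call was lost when length and GC trends were also removed, at -0.22 (adjusted p = 0.175), which left 0 AHR targets called. Of 7 STAT3 targets 0 passed (median 0.07). Pim1 fell by 0.34 without KO replicate 3 (limma adjusted p = 0.0177) and Socs3 by 0.26 (adjusted p = 0.0287), while Junb, also on this list, rose. Pim1 and Junb passed also with length and GC trends removed, and Socs3 did not, at -0.25 (limma adjusted p = 0.0555). Socs3, the feedback inhibitor of STAT3 signalling, was at 21.9, 21 and 35.1 FPKM in KO and 26.1, 26 and 25.6 FPKM in WT, with KO replicate 3 above every other library. Mcl1, a survival gene, was higher in every KO library and averaged 75 ± 2.72 FPKM in KO libraries against 69 ± 3.23 FPKM in WT libraries.

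Factors of other helper fates did not pass with all libraries, 0 of 6 tested (median 0.06). Tbx21, which encodes the Th1 factor T-bet, was at 4.38, 2.83 and 2.11 FPKM in KO and 1.62, 1.48 and 1.6 FPKM in WT, higher in every KO library. Tbx21 rose by 0.82 (limma adjusted p = 0.023) without KO replicate 3, Egr2 rose by 0.33 (adjusted p = 0.0401) and Ets1, which restrains Th17 differentiation, fell by 0.44 (adjusted p = 0.00841), and these 3 also passed with length and GC trends removed. The markers Lyz2 and Gzmb were also higher in every KO library, at 8.31, 9.44 and 4.24 FPKM and 19.2, 18.1 and 11.6 FPKM in KO, against 1.38, 1.03 and 0.782 FPKM and 2.66, 2.76 and 2.97 FPKM in WT. With all libraries Gzmb passed, at a log2 fold change of 2.16 (limma adjusted p = 0.00675), and Lyz2 did not, at 1.96 (adjusted p = 0.0503). Whether cells that such genes mark account for any of these values was not tested.

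**Figure D5:**
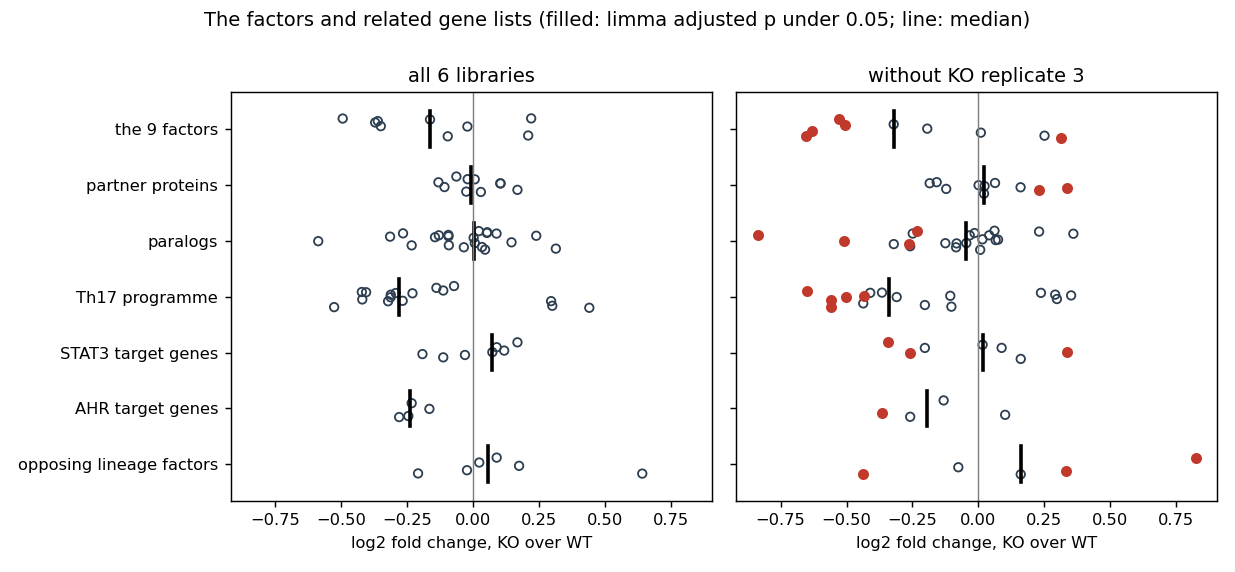
Log2 fold change, KO over WT (horizontal axis), of each tested gene of the 9 factors and 6 related lists, with all libraries and without KO replicate 3. Filled points passed at limma adjusted p under 0.05 and the line is the list median, which for the 9 factors was -0.16 with all libraries and -0.32 without KO replicate 3.

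Genes whose profile over the 6 libraries came closest to a factor were found by the root mean square difference of centred log2(FPKM + 1), among 6958 genes of 5 FPKM or more. For Ahr these were Cpd, a carboxypeptidase gene, and the TGF-β receptor gene Tgfbr1 (0.0315 and 0.0387), and Cpd was also the closest to Maf (0.0658). For Irf4 they were Als2cl (0.0507) and Ssh2 (0.0508), for Ikzf3 Tnip2 (0.0523) and for Bhlhe40 Dtwd1 (0.0340). Neighbours were closer for the other factors, with Akna for Stat3 (0.0107), Ccnt1 for Rora (0.0134), Myd88 for Runx1 (0.0135) and Pithd1 for Batf (0.0273). Likeness over 6 libraries is a description only.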

How the data were processed

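Groups and replicate numbers came from the sample titles. The authors deposited gene and transcript tables in FPKM, with ratio (fold), log2, p-value and q-value columns for KO over WT, per the file headers. The sources used here do not say which tool made those p-values. HISAT2, StringTie, edgeR, DESeq2, cutadapt, FastQC and the build mm9 are named in the submitters' processing notes. However, 73240 of 73430 transcripts shared with GENCODE M21 had its GRCm38 coordinates, so GRCm38 is given. For 23797 of 24125 genes, FPKM equalled the length-weighted sum of its transcripts over the union of annotated exons within 1 percent.

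Genes and transcripts at 1 FPKM or more in at least 3 libraries were compared on log2(FPKM + 1), a scale that understates the change of low genes, with limma 3.58.1 in R 4.3.3 (mean trend, Benjamini-Hochberg adjustment, threshold 0.05). The fit was checked on simulated data. There, a log2 change of 0.5 was called for 41.5 percent of the genes given it and 1.54 percent of the transcripts. At a log2 change of 1 these shares were 85.1 and 23.4 percent. A gene or transcript that did not pass may thus still differ. Leading-transcript shares were compared by an exact permutation test. Length and GC trends were removed with splines for the leading transcript of each gene. The factors and lists were chosen with earlier results of these data known. From each list up to 4 tested genes of smallest p, and any called gene, could be named. Some others were named for whether their groups overlapped.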

Additional observations from a re-analysis of the deposited data

How the results depend on the processing

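The count of called factors was 0 in every fit with all libraries (common median scaling, no filter, 5 FPKM filter, pseudocount of 0.1, no mean trend, length and GC trends removed, replicate block). It was 0 to 5 when single libraries were left out, with 5 only without KO replicate 3. It was 5 in the fit, added after the data were seen, that also removed length and GC trends. The count of called genes, 12 in the comparison as reported, was 5 at the 5 FPKM filter, 0 to 1088 with single libraries left out (0 without KO replicate 1, 1088 without KO replicate 3), and 1001 without KO replicate 3 after length and GC trends were removed. Beside that 0, 346 genes had a limma unadjusted p under 0.05. The count of called transcripts, 8 as reported, was 4 without the filter, 25 without the mean trend, 3 with the replicate block and 1 to 6 with single libraries left out. The median log2 fold change of the factors, -0.16 as reported, ran from -0.32 to -0.05 over all alternatives.

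Same-numbered KO and WT libraries did not deviate together (correlations 0.00668, -0.0170 and -0.0756), and no library correlated best with its own number. With the replicate block 13 genes and 0 factors were called.

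Maf, Ahr, Irf4, Ikzf3, Stat3, Batf and Bhlhe40 kept their direction in each alternative run (Ikzf3 was too low for the 5 FPKM filter). Rora turned to 0.0172 without KO replicate 2, and its values with single libraries left out ran from -0.321. Runx1 turned to 0.0136 with median scaling, 0.0648 with length and GC trends removed, 0.00915 without KO replicate 3 (with single libraries left out, from -0.0490) and 0.179 with both. Socs3 turned to 0.00910 with median scaling, 0.0685 without KO replicate 1 and 0.0969 without KO replicate 2, and was -0.259 without KO replicate 3. The KO minus WT difference in the leading transcript's share, in percentage points, turned to -0.802 and -1.38 for Rora without KO replicate 1 or 2 and was 2.68 without KO replicate 3. For Stat3 it turned to 0.843 and 0.888 without KO replicate 1 or 3, and to 0.801 and 0.562 without WT replicate 2 or 3, with -3.04 without KO replicate 2. For Bhlhe40 it turned to -0.000483 and -0.162 without KO or WT replicate 1 (up to 0.192 with single libraries left out), and to -0.0237 over the gene FPKM, as did Ikzf3 to -0.371. The cause was not tested.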
